A study of Mus musculus with 4 samples.

Results

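The 10 genes described here are regulators of blood stem cell maturation and of the fetal state: Mecom, Hlf, Meis1, Etv6, Ikzf1, Ikzf2, Spi1, Mycn, Hmga2 and Lin28b. They were chosen by name and found by gene symbol, 10 of the 49997 genes in the count tables, and each of the 10 passed the filter on low counts that left 19837 genes to test. RNA came from explants of the mouse aorta-gonad-mesonephros region (AGM), the site in the embryo where blood stem cells first arise. All explants were from C57BL/6J mice and spent 48 hours on a membrane filter, either untreated (2 libraries) or with 5 µM CCCP (2 libraries), a protonophore that dissipates the mitochondrial membrane potential. The labels' growth protocol names embryos of stages E10.5 and E11.5, whereas the series design names E10.5 alone.

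The labelled cell type is embryonic stem cells of the blood and the design names c-kit+ cells, but the extraction protocol describes RNA from explants. Endothelial, mesenchymal, neural, kidney and gonad, and muscle markers were all present in each library, while the stem cell receptor Kit lay between 47.6 and 63.2 CPM (counts scaled to library size with TMM factors). The libraries are therefore treated as bulk explant RNA, in which fewer cells of a type and less RNA per cell cannot be told apart. No label says whether a replicate is a separate embryo, pool or culture, so p-values measure only the spread between these samples. Total counts were 37360968 to 48827826 per library, with replicate 1 the deeper in each group, and 3 counts correspond to 0.0599 to 0.0827 CPM.

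Blood stem cells of the fetus divide more, and give a different range of blood cells, than those of the adult, and the switch between these states is set in part by the Lin28b, let-7 and Hmga2 axis. Lin28 proteins block the maturation of let-7 microRNAs, and let-7 represses targets such as Hmga2, a chromatin protein tied to fetal stem cell self-renewal. Mecom, Hlf, Meis1 and Etv6 are transcription factors needed for, or marking, stem cells, whereas Ikzf1, Ikzf2 and Spi1 act in the branching of lymphoid and myeloid lineages.

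The let-7 family is shown first because its shared seed ties Lin28b and Hmga2 together. The RefSeq microRNA table used here (GRCm38.p6) gives 9 mature let-7 family microRNAs from the 5′ arm at 11 loci, and all 9 have the same seed (bases 2 to 8, in capitals). The mature sequences, 5′ to 3′, are
mmu-let-7a-5p: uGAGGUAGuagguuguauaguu
mmu-let-7b-5p: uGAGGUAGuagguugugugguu
mmu-let-7c-5p: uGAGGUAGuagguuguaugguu
mmu-let-7d-5p: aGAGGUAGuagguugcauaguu
mmu-let-7e-5p: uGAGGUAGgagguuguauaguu
mmu-let-7f-5p: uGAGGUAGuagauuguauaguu
mmu-let-7g-5p: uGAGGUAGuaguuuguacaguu
mmu-let-7i-5p: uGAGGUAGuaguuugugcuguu
mmu-miR-98-5p: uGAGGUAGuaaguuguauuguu

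The 7 bases that pair with this seed, CTACCTC, were searched on the transcript strand in the 3′ UTRs of GENCODE vM21 transcripts. Hmga2 and Lin28b each held 4 matches, Hlf held 1, and the other 7 regulators held none. Each site is printed with 14 bases before and 1 base after the match, which is in capitals, all on the minus strand of mm10.
Hmga2 site 1, chr10:120364224-120364245: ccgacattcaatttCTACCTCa
Hmga2 site 2, chr10:120362987-120363008: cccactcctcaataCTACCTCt
Hmga2 site 3, chr10:120362549-120362570: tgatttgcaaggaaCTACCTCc
Hmga2 site 4, chr10:120361691-120361712: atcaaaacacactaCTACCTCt
Lin28b site 1, chr10:45381022-45381043: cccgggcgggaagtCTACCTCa
Lin28b site 2, chr10:45378648-45378669: atacttgttagtaaCTACCTCt
Lin28b site 3, chr10:45378476-45378497: tttacagcacatggCTACCTCc
Lin28b site 4, chr10:45377060-45377081: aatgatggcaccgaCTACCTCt
Hlf site 1, chr11:90337992-90338013: ggtttgtagaaaacCTACCTCa

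A match was present in 8.96% of all 20979 genes with a 3′ UTR. Among 2226 genes with a 3′ UTR within 20% of the length of that of Hmga2 (3014 bases), 15.6% held at least 1 match and 0.135% held as many as Hmga2. For Lin28b (4445 bases, 1259 genes of like length) these shares were 23.9% and 0.238%. The single match in Hlf was ordinary for its length, since 23.0% of 1406 genes of like length held at least 1. In the first site of Hmga2, the first of Lin28b and the site of Hlf the match is followed by an A, the base known to strengthen microRNA sites. Of the other genes of the Lin28 and let-7 pathway, Igf2bp1 and Trim71 held 4 matches each, Ago2 held 3, and Lin28a, Arid3a and Igf1r held 2 each. Igf2bp2, Igf2bp3 and Hmga1 held 1 each. The share of genes of like length with as many ran from 0.356% (Igf2bp1) to 13.3% (Igf2bp3). It was 9.09% for Igf1r, and for Ago2 it was 1.33% of only 75 genes. A match is a property of the sequence and not a measured site. The poly(A) libraries do not measure mature microRNAs, and the 12 let-7 hairpin rows of the count tables (the 11 loci above and Mirlet7a-2) together held 51 and 25 counts in the untreated libraries and 35 and 24 in CCCP.

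With CCCP, none of the 10 regulators reached an adjusted p under 0.05 (Benjamini-Hochberg), either in the quasi-likelihood test of edgeR or in DESeq2. The background is the same in edgeR, where 0% of all genes tested passed, while 2.99% passed in DESeq2. The edgeR adjusted p-values of the regulators ran from 0.278 (Ikzf2) to 0.965 (Mycn). Ikzf2, lower in CCCP, was the single regulator with an unadjusted edgeR p under 0.05, a level that 9.16% of all genes reached as lower and 5.45% as higher. The log2 fold change was below 0 for 7 regulators and above 0 for 3, with a median of -0.05 beside -0.01 over all genes. Both CCCP libraries lay below both untreated libraries for Hlf and Ikzf2, against 24.8% of all genes, and above them for Spi1, against 24.0% of all genes. For the other 7 the groups overlapped. Neither count is larger than its background share. In the plot of levels by library the groups are apart only for Hlf, Ikzf2 and Spi1.

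**Figure D1:**
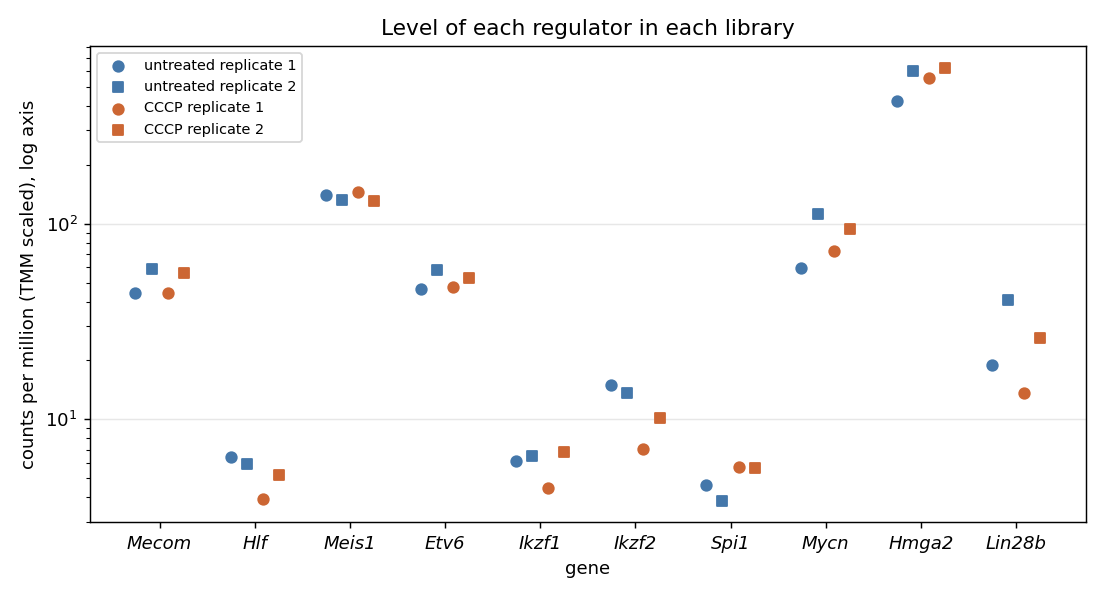
CPM (TMM scaled, log axis) of each of the 10 regulators in each of the 4 libraries, with colour for treatment and shape for replicate number. Hmga2 is the highest gene in every library, and the CCCP points lie below both untreated points for Hlf and Ikzf2 and above them for Spi1.

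Mecom encodes a zinc finger factor of the PRDM family needed for stem cell maintenance and lies on mm10 chromosome 3 (29951296 to 30509759, minus strand, 21 exon blocks). Its level was 44.1 and 58.9 CPM in untreated replicates 1 and 2, and 44.3 and 56.0 CPM in CCCP replicates 1 and 2. The groups overlapped fully, and in each of them replicate 2 was the higher library. Pairs of values are given in this order of replicates throughout. The means were 51.5 ± 10.498 and 50.2 ± 8.29 CPM (SD, n = 2 in each group), with a log2 fold change of -0.04 (standard error 0.189, 95% interval -0.50 to 0.42, edgeR adjusted p = 0.942). Its sign turned to 0.22 without untreated replicate 2 and to 0.13 without CCCP replicate 1, so neither direction can be read.

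Etv6, an ETS family repressor required for blood formation in the bone marrow (chromosome 6, 134035700 to 134270158, plus strand, 11 exon blocks), followed the same order of libraries. It was at 46.5 and 58.2 CPM in untreated explants, and 47.6 and 52.9 CPM in those with CCCP. Both CCCP values thus fell between the untreated values. For Etv6 the log2 fold change was -0.06 (95% interval -0.43 to 0.31, edgeR adjusted p = 0.878), and it turned to 0.14 without untreated replicate 2 and 0.02 without CCCP replicate 1. Etv6 shares exon bases with 3 genes on the opposite strand, each with at most 18 counts in any library.

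Meis1, a homeodomain partner of Hox and Pbx proteins that sustains stem cells (chromosome 11, 18880428 to 19019651, minus strand, 15 exon blocks), was the steadiest of the 10. Its level was 139 and 131 CPM without treatment and 145 and 130 CPM with CCCP. The groups overlapped, and replicate 2 was the lower library in both. Its log2 fold change was 0.02 (standard error 0.119, 95% interval -0.27 to 0.31, edgeR adjusted p = 0.947). It turned to -0.05 without CCCP replicate 1, and moved to 0.24 with the trend on GC content removed. Without library scaling it was -0.04, a shift shared by the whole table, whose median went from -0.01 to -0.07. The antisense gene Gm16141 shares 227 exon bases with Meis1 and held 103 to 355 counts, beside 4712 to 7014 for Meis1.

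Hlf, a PAR bZIP factor that marks emerging blood stem cells (chromosome 11, 90336535 to 90390917, minus strand, 6 exon blocks), was lower in CCCP without passing the test. It was at 6.41 and 5.94 CPM in untreated explants (321 and 222 counts), and at 3.94 and 5.21 CPM in those with CCCP (191 and 189 counts). The groups did not overlap, but untreated replicate 2 and CCCP replicate 2 were closer to each other than the CCCP libraries were. The means were 6.17 ± 0.337 and 4.57 ± 0.901 CPM (SD, n = 2), and the log2 fold change was -0.44 (standard error 0.260, 95% interval -1.07 to 0.20, edgeR adjusted p = 0.474). It ranged from -0.64 to -0.24 when 1 library was left out, with the smaller difference seen without CCCP replicate 1.

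Of the lineage regulators, Ikzf2 had the largest difference of the 10. Ikzf2 encodes Helios, an Ikaros family zinc finger factor found in stem and lymphoid cells, on chromosome 1 (69531207 to 69687351, minus strand, 10 exon blocks). It was at 15 and 13.6 CPM without treatment (751 and 509 counts) and at 7.07 and 10.2 CPM with CCCP (343 and 371 counts). Both CCCP libraries were below both untreated libraries, with the lowest level in CCCP replicate 1. The means were 14.3 ± 0.984 and 8.65 ± 2.23 CPM (SD, n = 2). For Ikzf2 this gave a log2 fold change of -0.73 (standard error 0.239, 95% interval -1.31 to -0.15). The unadjusted edgeR p was 0.0220 and the adjusted p 0.278 in edgeR and 0.141 in DESeq2. The gene has 10787 exon bases. Over all genes tested, the log2 fold change went down with exon length (Spearman's rho -0.35 across genes, which are not independent), and 8 of the 10 regulators are longer than the median of 3467 bases. Ikzf2 was at a log2 fold change of -0.45 with the trend on exon length removed and at -0.42 with the trend on GC content removed, and it ran from -1.01 (without CCCP replicate 2) to -0.48 (without CCCP replicate 1).

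Ikzf1, the lymphoid factor Ikaros (chromosome 11, 11684962 to 11772930, plus strand, 13 exon blocks), was at 6.11 and 6.47 CPM in untreated explants, and 4.47 and 6.81 CPM in those with CCCP. The CCCP libraries lay on either side of both untreated libraries. Ikzf1 had a log2 fold change of -0.16 (standard error 0.283, 95% interval -0.85 to 0.53, edgeR adjusted p = 0.816), and it turned to 0.12 without CCCP replicate 1 and moved to -0.48 without CCCP replicate 2. Hence Ikzf1 and Ikzf2 were both lowest in CCCP replicate 1, but only for Ikzf2 were the groups apart. Whether the family members differed in response was not tested.

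Spi1 encodes PU.1, the ETS factor of myeloid and B cell fate, on chromosome 2 (91082374 to 91115759, plus strand, 7 exon blocks). It was at 4.63 and 3.85 CPM without treatment (232 and 144 counts) and at 5.71 and 5.65 CPM with CCCP (277 and 205 counts). Both CCCP libraries were above both untreated libraries, and the CCCP libraries were nearly equal. The means were 4.24 ± 0.554 and 5.68 ± 0.0396 CPM (SD, n = 2), with a log2 fold change of 0.42 (standard error 0.248, 95% interval -0.19 to 1.02, edgeR adjusted p = 0.471). It stayed between 0.33 and 0.57 with any 1 library left out, and was 0.29 and 0.25 with the trend on length or on GC content removed. Macrophage markers were measured beside it.

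The summed CPM of 8 general leukocyte markers was 122 and 118 in untreated explants, and 119 and 125 in those with CCCP. The single markers did not all follow this sum, of which Lcp1 alone made up 43.0 to 52.3 CPM. Ptprc, which encodes the pan-leukocyte surface protein CD45, was at 6.85 and 6.82 CPM in untreated libraries and at 3.65 and 3.39 CPM in CCCP, lower in both. Its log2 fold change was -0.96 (standard error 0.237, adjusted p = 0.216 in edgeR and 0.0459 in DESeq2). Coro1a and Laptm5 were instead above in both CCCP libraries, with log2 fold changes of 0.22 each (edgeR adjusted p = 0.535 and 0.527). The other 5 markers overlapped between groups. Of the 8, 1 was thus below and 2 above, beside 24.8% and 24.0% of all genes. Ptprc has 5876 exon bases and 39.4% GC content, Coro1a 2156 and 58.0%, and Laptm5 4963 and 56%. The part of blood cell content in the differences of Hlf, Ikzf2 and Spi1 was not tested. The summed level of 8 macrophage markers was 239 and 167 CPM without treatment and 245 and 244 with CCCP. Of the 8, the 3 genes C1qa, C1qb and C1qc were above in both CCCP libraries, beside 24.0% of all genes, and none was below. The other 5 macrophage markers overlapped between groups, with log2 fold changes from -0.32 (Mrc1) to 0.22 (Cd68). C1qa, C1qb and C1qc have 1082, 1104 and 1127 exon bases and 57.4% to 59.5% GC content. Mrc1 has 5318 exon bases and 43.4%, and Cd68 has 1247 and 52.9%. The leukocyte and macrophage markers are given without removal of the trend on exon length or on GC content. Spi1 is itself active in macrophages, and the part of macrophage RNA in its difference was not tested. The summed level of 8 hepatic markers was 1420 and 825 CPM in untreated explants, and 3.81 and 66.3 CPM in those with CCCP, with 8 of 8 below and 1 of 8, Ahsg, at 0 counts in CCCP replicate 1. Liver-type RNA was thus nearly missing from CCCP replicate 1, the library in which Hlf, Ikzf1, Ikzf2 and Lin28b were lowest. Over all libraries, only Hlf and Ikzf2 of these genes followed the order of the hepatic sum. Ikzf1 was highest in CCCP replicate 2 (6.81 CPM). Lin28b was lower in untreated replicate 1 (18.9 CPM), where the hepatic sum was highest, than in CCCP replicate 2 (26.1 CPM). Hlf is also expressed in liver, and the part of the liver-type RNA in the differences of these genes was not tested.

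In the untreated pair the fetal and growth regulators held the largest gaps between replicates of the 10, whereas in the CCCP pair Ikzf1, Ikzf2 and Hlf came after Lin28b and ahead of Mycn and Hmga2. Mycn, a MYC family factor that drives division in embryonic progenitors (chromosome 12, 12936093 to 12941836, minus strand, 3 exon blocks), was at 59.4 and 111 CPM without treatment and at 72.6 and 93.8 CPM with CCCP. Both CCCP values fell between the untreated values. Mycn had a log2 fold change of -0.04 (standard error 0.298, 95% interval -0.76 to 0.69, edgeR adjusted p = 0.965). It ran from -0.41 without untreated replicate 1 to 0.52 without untreated replicate 2, and was 0.14 without CCCP replicate 1.

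Hmga2 (chromosome 10, 120361268 to 120476469, minus strand, 6 exon blocks) was at 425 and 602 CPM in untreated explants, and at 556 and 626 CPM in those with CCCP. Untreated replicate 1 stood below the other 3 libraries, and the groups overlapped. The means were 513 ± 126 and 591 ± 49.2 CPM (SD, n = 2), with a log2 fold change of 0.20 (standard error 0.197, 95% interval -0.28 to 0.68, edgeR adjusted p = 0.647). Without untreated replicate 1 the value was -0.02, and without untreated replicate 2 it was 0.51. The opposite-strand genes 1700006J14Rik and Gm51785 share 163 and 51 exon bases with Hmga2 and held 15 to 367 counts, beside at least 21251 for Hmga2.

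Lin28b (chromosome 10, 45376617 to 45486314, minus strand, 10 exon blocks) was at 18.9 and 40.9 CPM without treatment (948 and 1528 counts) and at 13.6 and 26.1 CPM with CCCP (662 and 948 counts). Replicate 2 held about as much more than replicate 1 in each group, 2.16 times in untreated and 1.92 times in CCCP, and the groups overlapped. The means were 29.9 ± 15.5 and 19.9 ± 8.83 CPM (SD, n = 2). The log2 fold change was -0.59 with the largest standard error of the 10, 0.435, and a 95% interval of -1.65 to 0.47 (edgeR adjusted p = 0.548). It was -1.04 without untreated replicate 1, 0.10 without untreated replicate 2, -0.19 without CCCP replicate 1 and -1.12 without CCCP replicate 2. With the trend on length or GC content removed it was -0.39 and -0.30.

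**Figure D2:**
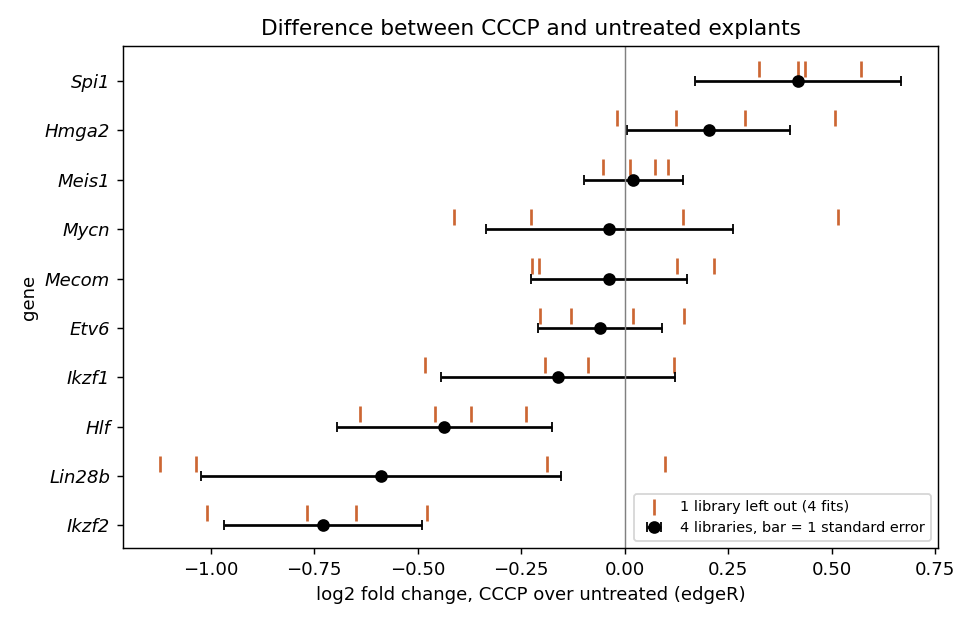
The log2 fold change of CCCP over untreated for each regulator by edgeR, with a bar of 1 standard error, and the 4 values obtained with 1 library left out as vertical ticks. Ikzf2, Hlf and Spi1 keep their side of 0 in all 4 fits, while the ticks of Lin28b run from -1.12 to 0.10 and those of Mycn from -0.41 to 0.52.

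Per kilobase of exon, Hmga2 was the most abundant of the 10 by far, with a mean of 144.7 CPM per kb (range over the 4 libraries 111 to 164). Mycn (mean 32.5, range 22.9 to 42.9) and Meis1 (mean 31.7, range 30.2 to 33.6) came next and did not differ beyond their spread. Etv6 followed at 8.75 CPM per kb and Mecom at 5.19. Lin28b (2.83, range 1.55 to 4.65) overlapped with Mecom above it and with Spi1 (2.50, range 1.94 to 2.88) below it. Ikzf2, Ikzf1 and Hlf were lowest, at 1.06, 0.933 and 0.925 CPM per kb, and overlapped with each other in that order. Hmga2 and Lin28b, the 2 regulators with 4 let-7 seed matches each, thus ranked 1 and 6 in whole explants.

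Likeness between regulators was measured as the largest gap, over the 4 libraries, between their log2 CPM values after each gene was centred on its own mean. Mecom and Etv6 were the closest pair, with a largest gap of 0.10. Hlf was closest to Ikzf2 (0.22), and Ikzf1 was closest to Hlf (0.23), so that the 3 genes of lowest level per kilobase were each other's nearest. Hmga2 and Mycn were closest to Mecom (0.21 and 0.27), Meis1 to Etv6 (0.24) and Spi1 to Meis1 (0.29). Lin28b had no near neighbour, since its closest member, Mycn, was 0.57 away. The most unlike pair was Spi1 and Lin28b (1.18). With 4 libraries these gaps are a description and no correlation was computed.

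The gap between libraries of the same group was for several regulators larger than the gap between groups. Replicate 2 was above replicate 1 in both groups for 6 of 10 regulators (Mecom, Etv6, Ikzf1, Mycn, Hmga2 and Lin28b), against 33.2% of all genes, and below it in both for 2 (Meis1 and Spi1), against 31.0%. The difference between these shares was not tested. The median absolute log2 ratio between replicates was 0.30 in untreated and 0.35 in CCCP for the regulators, beside 0.28 and 0.21 over all genes. The following genes of the Lin28 and let-7 pathway were picked after their values were seen. Lin28a, the paralog of Lin28b, was at 3.76 and 14.3 CPM in untreated explants, and 4.99 and 8.74 CPM in those with CCCP. Hmga1, the paralog of Hmga2, was at 54.6 and 187 CPM without treatment and 110 and 211 CPM with CCCP. Trim71, another let-7 target of early embryos, was at 4.97 and 11.52 CPM and at 6.04 and 9.10 CPM. In each of these, as in Lin28b and Mycn, replicate 2 was above replicate 1 in both groups, and the ratio was the larger in the untreated pair.

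Of the 17 genes listed for the Lin28 and let-7 pathway, 10 were higher in replicate 2 in both groups and 2 lower, beside 33.2% and 31.0% of all genes. The levels of some cell type markers moved with the replicate number as well. The summed level of 8 mesenchymal markers was 3115 and 1809 CPM in untreated replicates 1 and 2 and 2560 and 1964 CPM in CCCP. Col1a1 (887 and 550 CPM in untreated) and Col1a2 (1494 and 671 CPM) made up most of this sum. Of the 8, 5 were lower in replicate 2 in both groups, beside 31.0% of all genes. Twist1 was higher in both, and Twist2 and Lum differed between groups. Kidney and gonad markers summed to 279 and 184 CPM in untreated explants, and 254 and 176 CPM in those with CCCP. Of these 8 markers, 7 were lower in replicate 2 in both groups, beside the same 31.0%. No mesenchymal or kidney and gonad marker was at 0 counts. In the other lists, 5 of 8 macrophage, 5 of 8 neural, 4 of 8 muscle, 3 of 8 leukocyte and 1 of 8 erythroid markers were lower in both. Higher in both, beside 33.2% of all genes, were 4 of 8 endothelial, 3 of 8 erythroid, 2 of 8 muscle, 2 of 8 leukocyte and 1 of 8 neural markers. Because the labels name 2 embryonic days and do not assign them to samples, the age of the embryos in each library is not known. The part of composition or age in the replicate gaps of Lin28b, Mycn and Hmga2 was not tested.

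**Figure D3:**
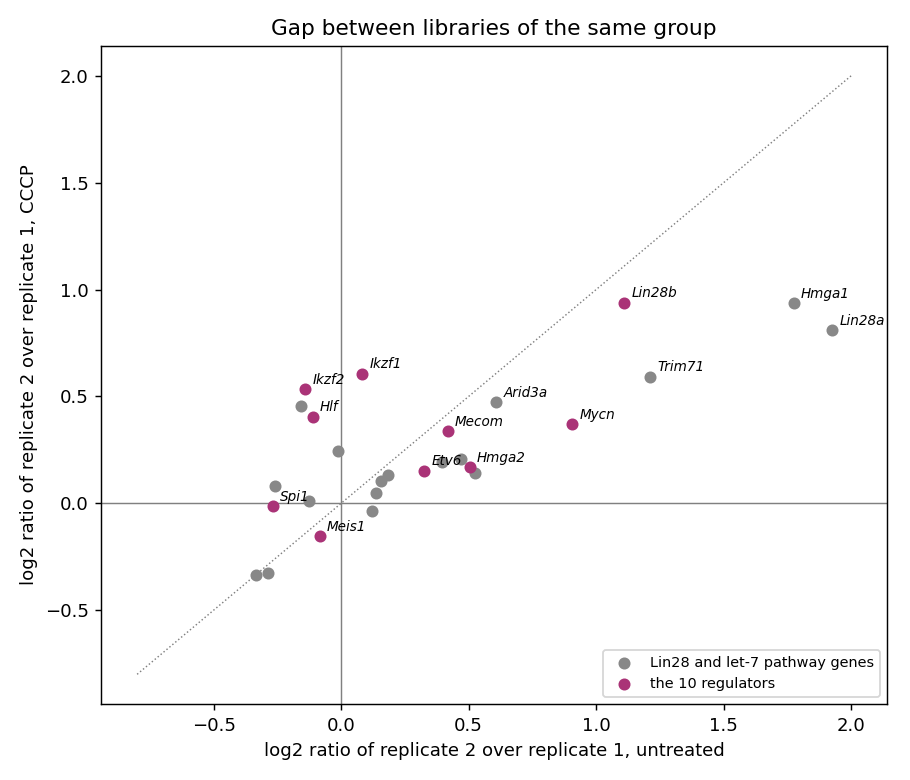
For each regulator (purple) and each gene of the Lin28 and let-7 pathway (grey), the log2 ratio of replicate 2 over replicate 1 in untreated explants (horizontal axis) and in CCCP (vertical axis), with a dotted line where both are equal. Lin28b, Mycn, Lin28a, Hmga1 and Trim71 lie far into the upper right, where replicate 2 is higher in both groups, while Meis1 and Spi1 lie in the lower left.

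The genes with which the regulators act were read from 9 lists with 128 genes, of which 122 passed the filter. None passed at an edgeR adjusted p under 0.05, and 2 passed in DESeq2, beside 2.99% of all genes. At an unadjusted edgeR p under 0.05, 5 were higher and 7 lower in CCCP, beside 5.45% and 9.16% of all genes. The CCCP pair lay above the untreated pair for 24 and below it for 28, beside 24.0% and 24.8% of all genes, so none of these 4 counts is above the background. The median log2 fold change of the 122 genes was -0.02. The genes named here had the smallest unadjusted p of their list in each direction.

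In the Lin28 and let-7 pathway, 7 of 17 genes were higher and 10 lower in CCCP, with a median of -0.08, which was 0.17 without untreated replicate 2, 0.02 without CCCP replicate 1 and -0.18 without untreated replicate 1. Tut4, the uridylyl transferase that Lin28 recruits to let-7 precursors, was at 287 and 263 CPM without treatment and at 186 and 188 CPM with CCCP. The groups were well apart for Tut4, with a log2 fold change of -0.56 (standard error 0.118, edgeR adjusted p = 0.185, DESeq2 adjusted p = 0.0106). Dis3l2, the exonuclease that degrades the uridylated precursors, had a log2 fold change of 0.21 (edgeR adjusted p = 0.478). Among the Ikaros family and its NuRD or CtBP partners, 11 of 15 genes tested were higher, 3 of them at an unadjusted p under 0.05 (5.45% of all genes), and the median was 0.15, with 0.09 without untreated replicate 1 and 0.30 without untreated replicate 2. Mbd3, a subunit of NuRD, was at 0.42 and the NuRD subunit Gatad2b at -0.33 (edgeR adjusted p = 0.294 and 0.372). The median stayed above 0 in each alternative fit, while Ikzf2 stayed below 0. With the trend on GC content removed, the median was 0.08 and Ikzf2 was at -0.42. With the trend on exon length removed, they were 0.21 and -0.45.

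Of the ETS relatives of Etv6 and Spi1, 6 of 16 were higher and 10 lower, with a median of -0.04, which was 0.05 without untreated replicate 2 and 0.06 without CCCP replicate 1. Erf, an ETS repressor, was at 0.23 and Gabpa, an activator of mitochondrial and housekeeping genes, at -0.39 (edgeR adjusted p = 0.402 and 0.276). Of the genes known to be driven by PU.1, 4 of 12 were higher and 8 lower, with a median of -0.24. With untreated replicate 1 left out this median was 0.23, and with untreated replicate 2 left out -0.61, so its direction cannot be set against that of Spi1. Cebpa, a myeloid factor, was at 0.40 and Btk, a B cell kinase, at -0.55 (edgeR adjusted p = 0.425 and 0.396). The Meis, Pbx and Hox partners of Meis1 split into 8 of 12 higher and 4 lower with a median of 0.07. Pbx2 was at 0.33 and Pbx3 at -0.15 (edgeR adjusted p = 0.347 and 0.651).

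The 3 PAR bZIP and related genes gave 2 higher and 1 lower in CCCP, beside -0.44 for Hlf. Dbp, a clock-controlled relative of Hlf, was at 0.54 and Tef at -0.10 (edgeR adjusted p = 0.327 and 0.693). In the Myc network, 9 of 13 genes were higher and 4 lower, with a median of 0.04. Mga, a MAX partner that represses MYC targets, had a log2 fold change of -0.83 (standard error 0.158, edgeR adjusted p = 0.166, DESeq2 adjusted p = 0.00138), and Zbtb17, which encodes the MYC partner MIZ1, was at 0.33 (edgeR adjusted p = 0.298). Of the PRDM relatives of Mecom, 3 of 13 were higher and 10 lower, with a median of -0.09, Prdm4 at 0.14 and Prdm9 at -0.65 (edgeR adjusted p = 0.564 and 0.360). Other stem cell factors were lower in 16 of 21 cases, with a median of -0.17, which became 0.05 when untreated replicate 2 was left out and -0.34 when untreated replicate 1 was. Ldb1, a cofactor of LIM domain proteins, was at 0.17 and Mllt3, a regulator of stem cell self-renewal, at -0.38 (edgeR adjusted p = 0.525 and 0.244). With the trend on exon length removed, the medians turned to 0.09 for the Lin28 and let-7 list, 0.06 for the ETS list and 0.17 for the PRDM list. The single genes of the lists are given without removal of this trend or of that on GC content. Mga has 19069 exon bases and Tut4 6821, beside the median of 3467 over all genes tested.

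**Figure D4:**
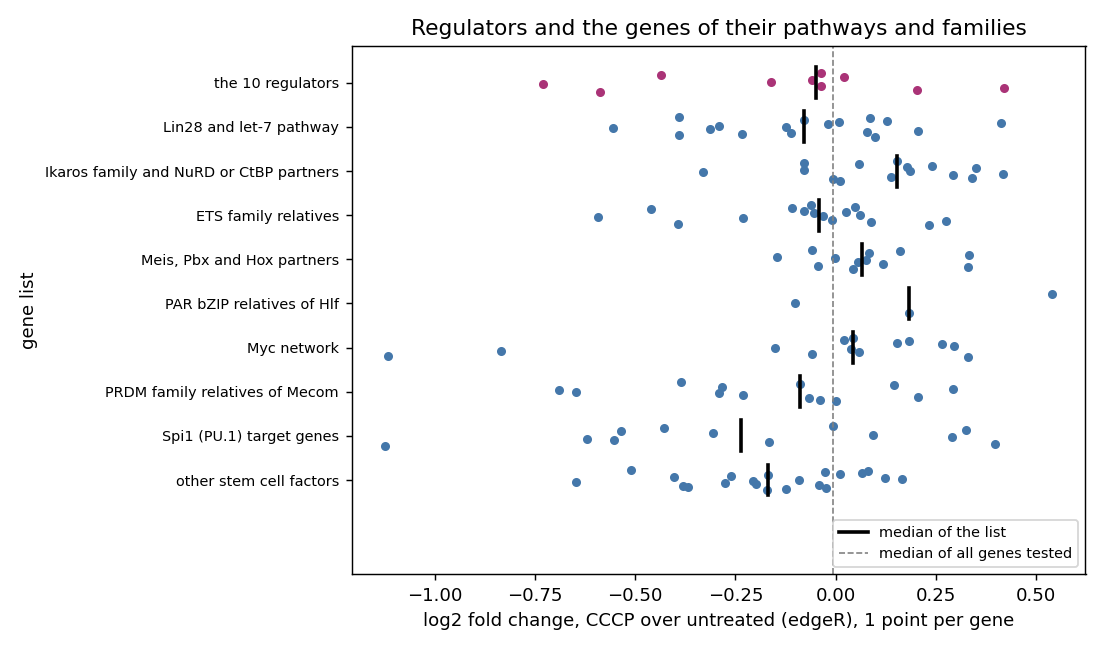
The log2 fold change of CCCP over untreated by edgeR for the 10 regulators and for the genes of 9 lists, 1 point per gene, with the median of each list as a black bar and the median of all genes tested as a dashed line. The points of each list spread over both sides of 0, and the list medians lie between -0.24 and 0.18.

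Promoters were read from RefSeq on GRCm38.p6, as the 250 bases before the start site. Entries were found for 8 of the 10 regulators, and those of Ikzf2 and Spi1 were not matched. The motifs searched on both strands were the E-box CACGTG (Mycn), GAGGAAGT (PU.1), CCGGAAGT (ETS), TGACAG (Meis1), TTACGTAA (Hlf and its relatives) and TGGGAA (Ikaros family). They occur in 6.02%, 2.44%, 2.88%, 15.9%, 0.113% and 21.6% of 32851 promoters, respectively. The profile of Lin28b over the 4 libraries, centred on its own mean, was closest to that of Mycn. Their largest gap was 0.57, so Mycn was no near neighbour. Hlf was closest in the same measure to the Ikaros family factor Ikzf2 (0.22). Whether Mycn acts on Lin28b, or Ikzf2 on Hlf, was not tested. The promoters of Lin28b and Hlf were picked for these pairings and are printed with motifs in capitals.
Lin28b, chr10:45470202-45470451, minus strand: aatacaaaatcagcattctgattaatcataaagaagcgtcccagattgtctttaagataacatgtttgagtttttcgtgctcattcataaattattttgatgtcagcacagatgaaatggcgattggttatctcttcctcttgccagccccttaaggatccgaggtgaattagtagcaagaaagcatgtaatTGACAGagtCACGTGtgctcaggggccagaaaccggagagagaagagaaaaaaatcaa
Hlf, chr11:90390918-90391167, minus strand: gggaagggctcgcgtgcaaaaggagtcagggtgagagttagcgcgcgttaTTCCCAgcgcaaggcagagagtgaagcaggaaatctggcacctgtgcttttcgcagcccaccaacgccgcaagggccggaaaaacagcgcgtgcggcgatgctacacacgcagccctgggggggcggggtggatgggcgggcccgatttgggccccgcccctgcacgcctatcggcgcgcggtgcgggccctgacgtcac

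Lin28b held an E-box from -49 to -44 and a Meis1 motif from -58 to -53 relative to the start site, which lies inside the gene's span. Hlf held the Ikaros core on the opposite strand, from -200 to -195. Of the other regulators, Meis1 held an ETS motif and an Ikaros core, Etv6 an Ikaros core and the second start of Mecom a Meis1 motif. Meis1 was closest in profile to the ETS factor Etv6, and Etv6 to Mecom, so neither was closest to an Ikaros family gene. Although its promoter held a Meis1 motif, Lin28b was the member farthest from Meis1 in profile (0.89). The promoters of Ikzf1, Mycn and Hmga2 held none of these letters in this window. A match is a description of the letters and not a measured binding site.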

How the data were processed

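RNA-seq of 4 AGM explant libraries was analysed, 2 untreated and 2 with CCCP, grouped by sample title. Per the file headers, the deposited values are raw counts that featureCounts 2.0.3 gave for mm10 RefSeq exons, summed by gene. No strand option and no option to count pairs as fragments were set, so reads of a pair are counted singly and overlapping genes on opposite strands cannot be told apart. The submitters' processing notes also name FastQC, HISAT2, SAMtools and Subread, without roles. The header of untreated replicate 1 differs by a letter from its title, and the sample was taken from the file record.

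Counts were tested with edgeR 4.0.16 in R 4.3.3 (glmQLFit and glmQLFTest, TMM, filterByExpr with a minimum count of 10 and total of 15, group as the sole term, two-sided, Benjamini-Hochberg over 19837 genes, threshold 0.05). A standard error is the log2 fold change divided by the square root of F, and the 95% interval uses the total (prior plus residual) degrees of freedom. An exact permutation test of 2 against 2 libraries cannot go below 0.333, so none is given. Alternatives were DESeq2 1.42.0, other scaling, no filter, removal of a length or GC trend, a replicate block and each library left out. The members and gene lists were chosen with earlier results of these data known. Named genes are the 10 members and, per list, the smallest unadjusted p in each direction among genes with a mean of at least 1 CPM. The floor of 3 counts covers counting error only, whereas the 95% intervals include the spread between libraries.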

Additional observations from a re-analysis of the deposited data

How the results depend on the processing

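The 10 regulators were recomputed under 13 alternatives, 2 of them (GC content) chosen after seeing the data. Of the 130 values, 110 kept direction and side of the threshold, 2 passed it and 18 changed sign. The number of genes called over the whole table was 1107 without a filter, 594 in DESeq2, 2118 with the replicate block, 1297 with the block and length trend removed, 748 with the block and GC trend removed, and 10 to 46 with 1 library left out. The lone library was then assumed to vary like the other group. With the replicate block, 2 regulators passed in edgeR: Ikzf2 (-0.75, adjusted p = 0.0311) and Lin28b (-0.56, adjusted p = 0.0231). With the block and a length or GC trend removed, neither passed (Ikzf2 0.134 and 0.215, Lin28b 0.142 and 0.279, edgeR adjusted p). Same-numbered libraries deviated together with a correlation of 0.36 across genes, but the labels do not say what the number stands for, so the samples share only a number. Signs changed for Mecom with length (0.20; with block 0.22) or GC trend removed (0.068; with block 0.074), for Etv6 with length removed (0.049; with block 0.060), for Meis1 without library scaling (-0.036, as the whole table shifted, from a median of -0.01 to -0.07) and for Mycn with the block (0.020). With 1 library left out the range was -0.22 to 0.22 for Mecom, -0.052 to 0.11 for Meis1, -0.20 to 0.14 for Etv6, -0.48 to 0.12 for Ikzf1, -0.41 to 0.52 for Mycn, -0.018 to 0.51 for Hmga2 and -1.12 to 0.10 for Lin28b. The cause was not tested. With 2 libraries per group and 144 to 321 counts in an untreated library, Hlf, Ikzf1 and Spi1 rest on the fewest counts.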
